A study of Mus musculus with 17 samples.

Results

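Resident Kupffer cell markers are genes whose transcripts in liver come mainly from the macrophages that live in the sinusoids. The 7 markers Cd163, Clec4f, Timd4, Vsig4, Cd5l, Folr2 and Marco were chosen by gene symbol, and all 7 were found among the 19151 genes measured under a high-fat diet (HFD) and the 24233 genes measured under a Western diet (WD). Their lower level in knockout liver was first seen under HFD, so the HFD values are given as a description without a test, and the WD livers and tumors carry the tests. RNA-seq libraries were made from 17 mouse samples and held between 9096110 and 12215784 counts in the HFD set and between 15494731 and 20200618 in the WD set. The HFD groups were livers of WT mice (n = 4) and of N-LKO mice (n = 4). The WD groups were livers of WT mice (n = 3), livers of N-LKO mice (n = 3) and tumors of N-LKO mice (n = 3). All were male C57BL6 mice that took a diet for 16 weeks from an age of 8 weeks, and the HFD and WD differ in fat and cholesterol content. N-LKO mice carry floxed alleles of NgBR, the protein encoded by Nus1, and a Cre recombinase driven by the albumin promoter, which acts in hepatocytes and is not expected to act in Kupffer cells. The RNA came from whole tissue, and whether tumors and N-LKO livers came from the same mice was not given in the sources used here.

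Kupffer cells settle in the liver before birth and renew themselves there. They take up blood-borne particles, bacteria, aged red blood cells and modified lipoproteins, and they keep their identity through signals from neighbouring hepatocytes, stellate cells and sinusoidal endothelium. When they are lost, monocytes from the blood can enter the niche and take on part of the same program over time, and Timd4 is among the markers that appear late. In a bulk sample, fewer cells of a type and less RNA per cell cannot be told apart.

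Levels of the targeted gene followed the labels. Nus1 was at 82.5 to 96.2 CPM (counts scaled to a common library size) in WT livers under HFD and at 29.4 to 38.0 CPM in N-LKO livers. Under WD it was at 88.2 to 98.9 CPM in WT livers, 41.7 to 51.1 CPM in N-LKO livers and 29 to 44 CPM in tumors. Hepatocyte genes were the most abundant of the cell type lists in every group, as befits liver, and general macrophage genes were detected in every library.

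The markers sit on different chromosomes apart from a pair on chromosome 6. In GRCm38 coordinates, Cd163 lies at chr6:124304656-124330527 on the plus strand and Clec4f at chr6:83644542-83656187 on the minus strand. Timd4 lies at chr11:46810800-46844332 and Cd5l at chr3:87357881-87371073, both on the plus strand. Vsig4 at chrX:96247203-96293438, Folr2 at chr7:101839988-101857194 and Marco at chr1:120474538-120505024 are on the minus strand. Each is annotated as protein-coding.

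The 250 bases before the RefSeq start (GRCm38.p6) are shown for 3 markers, because the markers moved together and differed in these windows. Cd5l and Timd4 each hold a pair of matches to the MAF motif, TGCTGA or its reverse complement TCAGCA, which capitals mark. Cd163, shown for its largest change in N-LKO liver, holds none. Vsig4 and Marco, whose windows are not shown, hold none in these 250 bases either. Their log2 fold changes in N-LKO against WT liver under WD were -0.38 and -1.44, so lack of the motif was not particular to Cd163. The Vsig4 match counted in the wider window below lies after the start.
Cd5l (chr3:87357631-87357880, plus strand): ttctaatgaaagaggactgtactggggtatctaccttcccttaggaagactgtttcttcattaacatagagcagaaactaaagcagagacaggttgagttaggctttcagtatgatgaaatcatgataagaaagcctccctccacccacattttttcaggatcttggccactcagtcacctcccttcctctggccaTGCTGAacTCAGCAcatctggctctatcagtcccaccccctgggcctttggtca
Timd4 (chr11:46810549-46810798, plus strand): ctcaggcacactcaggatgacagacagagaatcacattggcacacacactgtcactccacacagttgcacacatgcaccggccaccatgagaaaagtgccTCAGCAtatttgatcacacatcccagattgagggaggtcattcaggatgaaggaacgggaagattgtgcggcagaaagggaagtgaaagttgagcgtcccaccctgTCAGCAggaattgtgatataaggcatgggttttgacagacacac
Cd163 (chr6:124304401-124304650, plus strand): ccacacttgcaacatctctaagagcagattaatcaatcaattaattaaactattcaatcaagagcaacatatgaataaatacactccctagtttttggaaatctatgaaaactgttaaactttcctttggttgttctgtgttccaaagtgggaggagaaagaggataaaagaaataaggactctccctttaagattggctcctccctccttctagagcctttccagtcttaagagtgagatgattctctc

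All 7 markers matched the RefSeq promoter table, with 8 promoters in all because Folr2 has a second one. In the window from 250 bases before to 50 bases after the start, read on both strands, the MAF motif TGCTGA was found in 5 of the 7 markers, namely Clec4f, Timd4, Vsig4, Cd5l and Folr2. It was found in 21.7% of the 27025 genes with a promoter in the table. The core GAGGAA, bound by PU.1 and related ETS factors, was found in 3 markers (Vsig4, Cd5l and Marco) against 31.3% of genes. The nuclear receptor motif AGGTCA was found in Clec4f and Timd4, against 18.1% of genes, and the RBPJ core TGGGAA in Clec4f and Marco, against 28.3%. None of the 4 motifs was found in the Cd163 window. The MAF motifs of Cd5l face each other with 2 bases between them, and an arrangement TGCTGANNTCAGCA was present in 2 of 32851 promoters (0.00609%). It was looked for after the Cd5l window had been read. These matches are letters in a sequence and were not tested for binding.

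Per kilobase of exon, the markers differed in level by more than an order of magnitude in WT liver. Under WD, WT livers held Cd5l at 161.2 CPM per kb, Clec4f at 47.9, Vsig4 at 30.04 and Folr2 at 9.66, and the ranges over 3 libraries of these neighbours did not overlap. Marco (3.50), Cd163 (2.79) and Timd4 (2.50) followed, with overlapping ranges. In N-LKO livers under WD the order of the first 4 was the same, although Clec4f (27.1 to 36.4 CPM per kb) and Vsig4 (18.7 to 27.6) then overlapped. Cd163 stood last at 0.238 CPM per kb, with a range (0.217 to 0.273) that did not reach those of Timd4 (0.786 to 1.86) or Marco (0.937 to 1.82).

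Under HFD, every marker had a lower mean in N-LKO liver than in WT liver. Cd163, a scavenger receptor that takes up hemoglobin bound to haptoglobin, was at 10.6, 11.1, 9.34 and 11.1 CPM in WT livers and at 0.994, 1.57, 0.326 and 2.00 CPM in N-LKO livers. Timd4, a phosphatidylserine receptor for dying cells, was at 4.17, 3.25, 5.67 and 3.67 CPM in WT livers and at 0.746, 0.824, 0.544 and 1.44 CPM in N-LKO livers. The groups were far apart for both genes, and the log2 fold changes were -3.05 ± 0.30 (SE) and -2.19 ± 0.31. The other log2 fold changes were -1.62 for Marco, -1.33 for Folr2, -1.0 for Vsig4, -0.90 for Clec4f and -0.75 for Cd5l. The libraries of the 2 groups did not overlap for 6 of 7 markers, and they overlapped for Cd5l. Clec4f was apart only just, with its lowest WT library and its highest N-LKO library both at 30.3 CPM. N-LKO replicate 4 was the highest N-LKO library for every marker but Marco. Over all 13460 genes tested under HFD, 7.4% were lower in N-LKO liver without overlap, and nothing is read from the contrast that chose the markers.

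**Figure D1:**
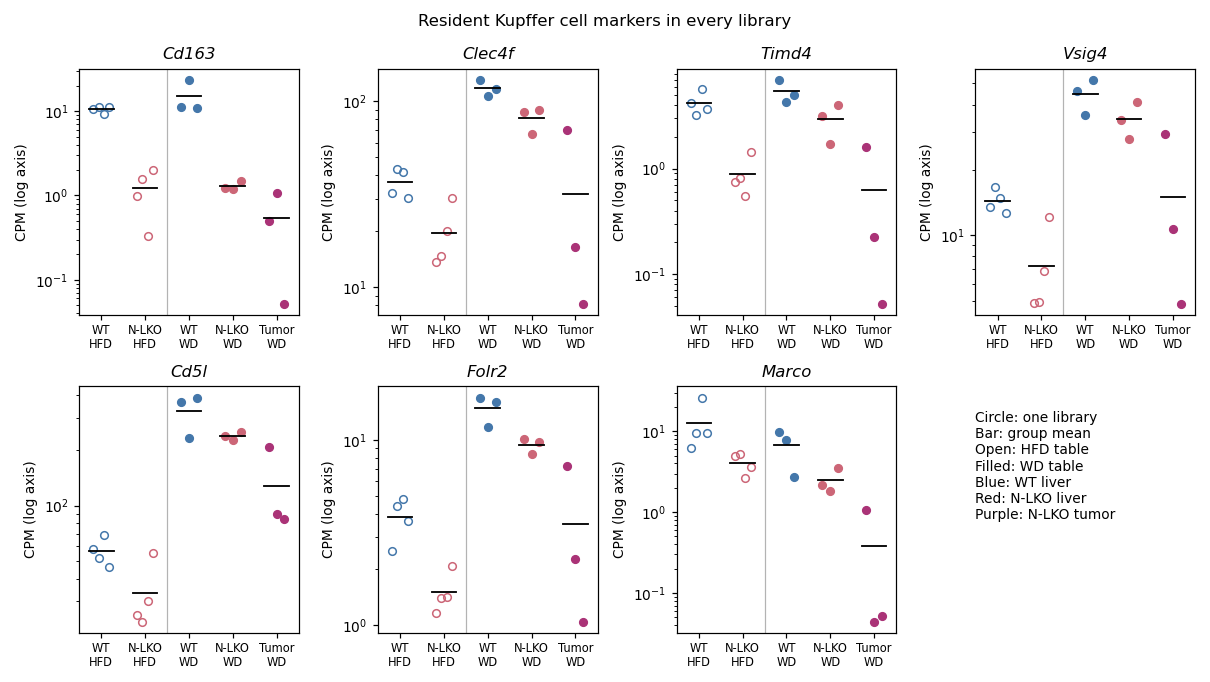
CPM of each of the 7 markers in every library, on a log axis, with HFD groups as open circles, WD groups as filled circles and bars at group means. Under WD, Cd163 lies between 10.9 and 23.6 CPM in WT livers and between 1.19 and 1.49 CPM in N-LKO livers, and tumor replicate 1 lies above the other tumors for every marker but Cd163.

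The comparison of N-LKO with WT liver under WD asked whether these markers were also lower in knockout livers of a second diet. Cd163 was at 11.2, 23.6 and 10.9 CPM in WT livers and at 1.22, 1.19 and 1.49 CPM in N-LKO livers. All N-LKO livers lay far below all WT livers, an 11.7-fold difference of mean CPM (log2 fold change -3.54 ± 0.55, SE). Its unadjusted p was 6.56e-05 and its adjusted p 0.15 by edgeR's quasi-likelihood test, so it did not pass the threshold of 0.05. The call depended on the fit. Cd163 passed with DESeq2 (adjusted p = 3.09e-08, where 0.157% of genes passed as lower) and with edgeR on the 6 livers alone (adjusted p = 0.0307, where 0.0296% of genes passed as lower). Over the other alternatives of the edgeR and limma fits the adjusted p ran up to 0.288, and over the fits that left out 1 library from 0.0883 to 0.712. WT replicate 2 was the highest Cd163 library, and without it the log2 fold change was -3.08.

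This test called few genes of any kind between WD livers. None of 17829 genes passed with edgeR (percent called 0), although 2212 had an unadjusted p under 0.05, and 0.555% passed with DESeq2. Nus1 itself had a log2 fold change of -1.02 ± 0.16 and an adjusted p of 0.151 by edgeR.

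The other 6 markers had lower means in N-LKO liver under WD, but none had an unadjusted p under 0.05 in the edgeR fit of all 3 WD groups. In the edgeR fit of the 6 livers alone, 5 of these 6 did (all but Vsig4), as did 20.1% of all genes, and their adjusted p there ran from 0.158 (Folr2) to 0.24 (Cd5l). The standard errors were smaller in that fit (0.14 for Clec4f) than those given next from the fit with the tumors. Marco, a scavenger receptor for bacteria and particles, was at 9.82, 7.73 and 2.68 CPM in WT livers and at 2.15, 1.80 and 3.51 CPM in N-LKO livers. The groups overlapped because WT replicate 3 was low, and the log2 fold change was -1.44 ± 0.70. Timd4 was at 7.0, 4.27 and 5.01 CPM in WT livers and at 3.18, 1.71 and 4.04 CPM in N-LKO livers, with no overlap and a log2 fold change of -0.87 ± 0.66. Clec4f, a C-type lectin found in rodents on Kupffer cells alone, was at 131, 108 and 117 CPM in WT livers and at 87.8, 67.1 and 90.0 CPM in N-LKO livers. All N-LKO livers were below all WT livers for Clec4f, and the log2 fold change was -0.54 ± 0.58.

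Folr2, a folate receptor of tissue macrophages, was at 17, 11.7 and 16.1 CPM in WT livers and at 10.1, 8.35 and 9.73 CPM in N-LKO livers. The groups did not overlap (log2 fold change -0.67 ± 0.49). Folr2 counts are uncertain, since they were fractional in 9 of 9 WD libraries, which shows reads shared with other features, and an antisense gene overlaps it in the annotation. Cd5l, a secreted protein of macrophages also called AIM, was at 365, 233 and 387 CPM in WT livers and at 241, 229 and 250 CPM in N-LKO livers, with WT replicate 2 within the N-LKO range. Vsig4, a complement receptor, was at 46.0, 35.7 and 52.0 CPM in WT livers and at 33.8, 27.8 and 41 CPM in N-LKO livers, and the groups overlapped. Their log2 fold changes were -0.45 ± 0.33 and -0.38 ± 0.48. In all, 4 of 7 markers were lower without overlap, where 13.6% of all genes were, and the median log2 fold change was -0.67 against 0.01 over all genes.

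Set side by side, the log2 fold changes under HFD and WD were -3.05 and -3.54 for Cd163, -1.62 and -1.44 for Marco, and -2.19 and -0.87 for Timd4. Those of the remaining 4 markers ran from -1.33 to -0.75 under HFD and from -0.67 to -0.38 under WD. Whether the change differed between diets was not tested here.

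**Figure D2:**
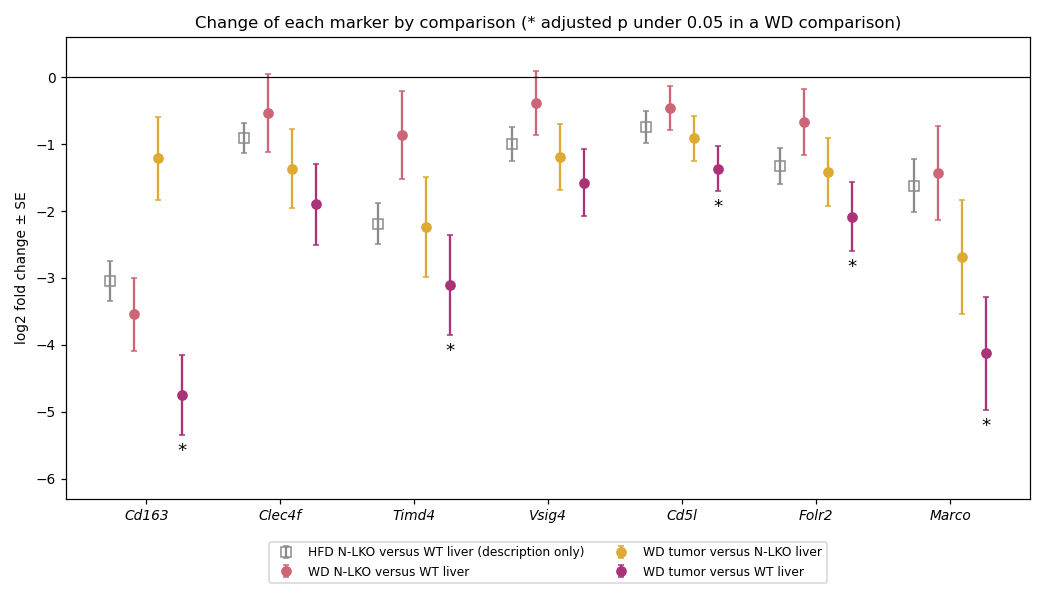
Log2 fold change with its standard error for each marker in the 4 comparisons, with HFD as open squares and asterisks for an adjusted p under 0.05 by edgeR in a WD comparison. Cd163 has the lowest value in N-LKO liver under both diets (-3.05 and -3.54), and Marco the lowest value of tumor against N-LKO liver (-2.69).

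Cd163, singled out after its values were seen, was also set against each other marker within the same library. The log2 ratio of Cd163 to each other marker was lower in N-LKO livers than in WT livers under WD by 2.14 (Marco) to 3.05 (Vsig4), and the 3 N-LKO livers lay below the 3 WT livers for each of the 6 ratios. A two-sided exact permutation test gave p = 0.1 for each, the smallest that 3 against 3 libraries allow, and 0.18 after adjustment over 18 comparisons. No such test can pass 0.05 at this size. Between tumor and WT liver 4 of the 6 ratios were apart, by -2.82 (Folr2) to -3.86 (Cd5l), and those to Timd4 (-1.24, exact p = 0.4) and Marco (-0.27, exact p = 0.9) were not. Between tumor and N-LKO liver none of the 6 was apart, with differences from -0.85 (Cd5l) to 1.87 (Marco).

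The comparison of tumor with N-LKO liver under WD asked how the markers differed between tumor and liver of one genotype and diet. It shares the N-LKO livers with the comparison above. Every marker had a lower mean in tumor, but tumor replicate 1 lay closest to the livers for 6 of 7, while the other tumors held little of most markers. Clec4f was at 70.5, 16.5 and 8.19 CPM in tumors, so that replicate 1 lay within the N-LKO liver range. Vsig4 was at 29.4, 10.7 and 4.85 CPM, and replicate 1 again lay within that range. Cd5l was at 209, 89.7 and 84.0 CPM, with every tumor below every N-LKO liver.

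Marco was at 1.06, 0.0445 and 0.0521 CPM, which was 21 counts in tumor replicate 1 and 1 count in each other tumor. Timd4 was at 1.61, 0.222 and 0.0521 CPM, or 32, 5 and 1 counts. For both genes all tumors were below all N-LKO livers. Folr2 was at 7.24, 2.27 and 1.04 CPM, also below every liver. Cd163 broke the order, at 0.503, 1.07 and 0.0521 CPM (10, 24 and 1 counts), and its tumor replicate 2 was the highest. At so few counts, a further fall of Cd163 is hard to detect.

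By edgeR, 0 of 7 markers passed between tumor and N-LKO liver, where 0.499% of all genes passed and 0.0617% passed as lower. Unadjusted p by edgeR was under 0.05 for 6 of 7, as it was for 18.3% of all genes. The log2 fold changes were -2.69 ± 0.85 for Marco, -2.24 ± 0.75 for Timd4, -1.42 ± 0.51 for Folr2 and -1.36 ± 0.60 for Clec4f. They were -1.21 ± 0.62 for Cd163, -1.19 ± 0.49 for Vsig4 and -0.91 ± 0.33 for Cd5l, and the edgeR adjusted p ran from 0.146 (Marco) to 0.335 (Cd163). With DESeq2, 1 marker passed (Timd4, adjusted p = 0.0347), where 2.3% of genes passed as lower. Without tumor replicate 1, 6 of 7 markers passed with edgeR, at adjusted p from 0.00109 (Clec4f) to 0.00669 (Marco). The log2 fold changes without that tumor were -4.32 for Timd4, -2.72 for Clec4f, -2.49 for Folr2, -2.13 for Vsig4 and -1.47 for Cd5l, all over 1.5 times those with it. For Marco the fitted value was -5.51 and rested on 1 count in each remaining tumor. Cd163 did not pass there (log2 fold change -1.14, adjusted p = 0.349). That setting called 12% of all genes, and 5.59% as lower, so the call of the markers rests on whether this tumor is counted. Of the 7 markers, 5 were lower without overlap with all tumors in, against 11.6% of genes.

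The comparison of tumor with WT liver under WD spans genotype and tissue together and shares its libraries with the other WD comparisons. All 7 markers were lower in every tumor than in every WT liver, where 16.4% of genes were. By edgeR, 5 of 7 passed as lower, against 6.8% of all genes (14.9% in either direction). Cd163 was 28.1-fold lower (log2 fold change -4.76 ± 0.60, edgeR adjusted p = 0.00563), and Marco 17.6-fold lower (-4.13 ± 0.85, edgeR adjusted p = 0.0162). Timd4 fell 8.65-fold (edgeR adjusted p = 0.0252), Folr2 4.25-fold (0.0272) and Cd5l 2.58-fold (0.0267). Clec4f, 3.73-fold lower in the mean (edgeR adjusted p = 0.0596), and Vsig4, 2.98-fold lower (0.0580), did not pass. Without tumor replicate 1 the log2 fold changes were -5.19 for Timd4 (-3.11 with it), -3.26 for Clec4f (-1.90), -3.15 for Folr2 (-2.09) and -2.52 for Vsig4 (-1.58). That of Cd5l was -1.92 (-1.36), that of Cd163 -4.69 and that of Marco -6.94, the last on 1 count in each remaining tumor.

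Cd163 passed in all 9 fits that left out 1 library and in all 9 other alternatives, with an adjusted p of at most 0.0299. The remaining calls were less stable. Only 2 markers passed without tumor replicate 2, where 4.24% of genes passed as lower, and 4 without tumor replicate 3 (5.25%). Likewise 2 passed without WT replicate 1 (3.14% of genes), 2 (1.26%) or 3 (3.67%), so the share over all genes fell there too. In the edgeR fit of those 2 groups alone Cd163 was the single marker that passed, where 1.73% of genes passed as lower. All 7 passed without tumor replicate 1 (10.1% of genes lower), with DESeq2 (10.3%) and with limma-voom (7.13%). The median log2 fold change of the markers was -2.09 against 0.04 over all genes.

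No general macrophage gene passed as lower under WD. Adgre1, which encodes the F4/80 antigen, was at 46.4, 28.6 and 45.3 CPM in WT livers, 43.7, 31.6 and 43.0 CPM in N-LKO livers and 40.8, 48.7 and 19.2 CPM in tumors. The log2 fold changes of Adgre1 were -0.02 ± 0.31 for N-LKO against WT liver and -0.15 ± 0.31 for tumor against WT liver. Those of Csf1r, the receptor for the macrophage growth factors CSF1 and IL-34, were -0.17 ± 0.26 and -0.34 ± 0.26. Csf1r counts, like those of Folr2, were fractional in every WT liver and tumor under WD and so hold some uncertainty. Cd68, a lysosomal protein of macrophages, had values of 0.26 ± 0.21 and 0.48 ± 0.21, and C1qa, a complement subunit, -0.12 ± 0.24 and 0.07 ± 0.24. None of the 4 passed in any WD comparison. Of the 14 general macrophage genes, 0 passed between N-LKO and WT liver and 2 rose in tumor against WT liver, Cd14 (1.96 ± 0.41) and Ctss, whose call held in 1 of 9 fits that left out 1 library.

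The summed CPM of the 7 markers was divided by that of the 14 general macrophage genes in each library, and this ratio of separate sums is given in percent. Under WD it was 55.6%, 61.3% and 56.3% in WT livers, 34.5%, 37.9% and 36.5% in N-LKO livers, and 26.9%, 8.53% and 10.5% in tumors. The 3 groups did not overlap. Cd5l made up most of this ratio, alone 33.7% to 36.9% in WT livers, 21.9% to 25.7% in N-LKO livers and 6.35% to 17.6% in tumors. WT replicate 2 had the highest ratio with the lowest marker sum of the WT livers (424 CPM), as its general genes summed to 691 CPM. The sum of the general genes ranged from 691 to 1054 CPM in WT livers, 889 to 1097 CPM in N-LKO livers and 937 to 1412 CPM in tumors. Under HFD, where the markers were chosen, the ratio was 44.9% to 67.6% in WT livers and 22.4% to 36.0% in N-LKO livers, and the general genes summed to 220 to 283 CPM and 156 to 296 CPM. Of the 14 general genes under HFD, 11 had a log2 fold change below zero and 3 above (median -0.20, given without a test). Adgre1 was at 7.12 to 9.38 CPM in WT livers and 3.46 to 6.96 CPM in N-LKO livers, without overlap. The log2 fold changes were -0.67 for Adgre1, -0.48 for Csf1r, -0.40 for Mertk and -0.91 for Fcgr1. Those of Cd68 and C1qa were -0.21 and -0.18, with overlapping groups, and the highest value of the list was 0.31. The ratio of Cd163 alone to the general genes was 1.04% to 3.41% in WT livers under WD and 0.112% to 0.136% in N-LKO livers.

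**Figure D3:**
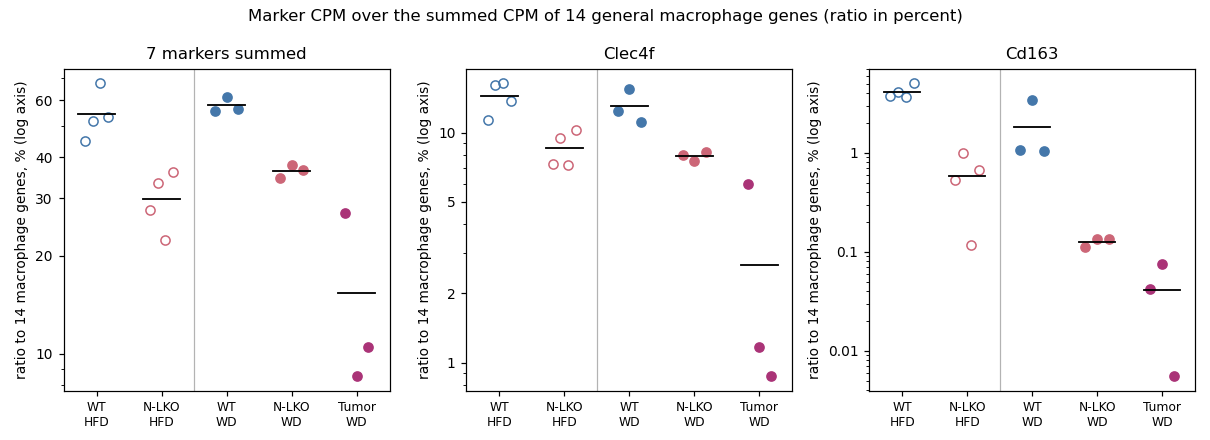
CPM of the 7 markers summed, of Clec4f and of Cd163, each divided by the summed CPM of 14 other genes of macrophages in general in the same library and given in percent, on log axes, with bars at group means. Under WD the summed ratio is 55.6% to 61.3% in WT livers, 34.5% to 37.9% in N-LKO livers and 8.53% to 26.9% in tumors.

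Further genes of resident Kupffer cells had medians nearer to zero than the 7 markers. Between N-LKO and WT liver under WD 0 of 12 passed, 10 of 12 had a value below zero and the median log2 fold change was -0.24. In tumor against WT liver 5 of 12 fell and 0 rose, with a median of -0.70. Over all genes 6.8% passed as lower in that comparison and 14.9% in either direction. These shares also stand beside the counts of the other lists. Pcolce2, which enhances procollagen processing, had a log2 fold change of -1.76 ± 0.39, Kcna2, a potassium channel subunit, -1.60 ± 0.35, and Fcna, the lectin ficolin A, -1.41 ± 0.34. Their calls held in 7, 8 and 6 of 9 fits that left out 1 library. Fcna was at 13.2 to 19.9 CPM in WT livers, 8.21 to 12.3 CPM in N-LKO livers and 3.44 to 9.80 CPM in tumors.

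Transcription factors of resident Kupffer cells were described as a list of 8 genes, of which none passed between WD livers of the 2 genotypes. In tumor against WT liver 3 fell, namely Id1 (-1.21 ± 0.32), Id3 (-1.20 ± 0.34) and Nr1h3, the gene of the oxysterol receptor LXR alpha (-0.56 ± 0.13). The calls of Id1 and Id3 held in 4 of 9 fits that left out 1 library and that of Nr1h3 in 7. Other liver cells also express Id1, Id3 and Nr1h3. Id3 was at 21.4 to 53.4 CPM in WT livers, 22.7 to 46.5 CPM in N-LKO livers and 13.7 to 19.2 CPM in tumors, so that only tumors lay apart.

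Among 12 ligands and receptors of the Kupffer cell niche, 2 fell and 1 rose in tumor against WT liver. Of all genes, 14.9% passed there in either direction. Gdf2 and Bmp10 encode BMP9 and BMP10, ligands of the receptor ALK1. Gdf2 was at 28.8 to 32.6 CPM in WT livers, 22.5 to 26.8 CPM in N-LKO livers and 6.14 to 15.9 CPM in tumors (log2 fold change of tumor against WT liver -1.63 ± 0.30, edgeR adjusted p = 0.0121), and it passed in all 9 fits that left out 1 library. Bmp10 had a value of -2.35 ± 0.64, a call that held in 1 of those 9. Dll4, a Notch ligand of endothelium, rose by 1.48 ± 0.34 on the log2 scale and held in 5. The median over the list was 0.11, and 0 of 12 passed between N-LKO and WT liver. Csf1r belongs to this list and to the general macrophage list.

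Genes linked to a pair of Kupffer cell tasks, uptake of dying cells and handling of heme and iron, held few calls in tumor against WT liver. For uptake, 1 of 13 genes rose and 0 fell (median 0.07). That gene was Mfge8, a bridge between phosphatidylserine and integrins, at 8.61 to 19.4 CPM in WT livers and 49.9 to 380 CPM in tumors (3.82 ± 0.63). It also rose against N-LKO liver (3.46 ± 0.61, edgeR adjusted p = 0.0462), a call that held in 1 of 9 fits that left out 1 library. For heme and iron, Cp, the ferroxidase ceruloplasmin, rose (0.96) and Hmox1, which breaks down heme, fell (-0.92) among 12 genes, with a median of -0.17. Ftl1 also fell (-0.70), but this ferritin subunit has near-identical copies and its counts are uncertain. The call of Cp held in 6 of 9 fits that left out 1 library, that of Hmox1 in 3 and that of Ftl1 in 7. Of all genes, 14.9% passed in either direction in tumor against WT liver.

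Genes of recruited macrophages and some other cells had higher levels where the markers were lower, and their part in the result was not tested. The 12 genes of monocyte-derived and lipid-associated macrophages summed to 123 to 458 CPM in WT livers under WD, 529 to 631 CPM in N-LKO livers and 842 to 1125 CPM in tumors, without overlap of the groups, and each gene exceeded 3 counts in some library of each group. Between N-LKO and WT liver 12 of 12 had a value above zero, with a median of 0.93, and 0 passed. In tumor against WT liver 6 rose, led by Spp1 (2.88 ± 0.63), Cd63 (2.35 ± 0.41) and Cd9 (2.00 ± 0.27). The calls of Spp1, Cd63 and Cd9 held in all 9 fits that left out 1 library. Trem2, Gpnmb, Lgals3, Ccr2, Ly6c2 and Mmp12 did not pass. Cd63 counts are uncertain like those of Folr2, since they were fractional in every WD library. Spp1 alone was at 132 to 490 CPM in tumors. The paper lists Spp1 among the markers of its hepatocyte cluster enriched for HCC. Spp1 is also made by cholangiocytes, and in that list of 6 genes Spp1 and Sox9 (2.67) rose in tumor against WT liver and Sox9 (1.90) against N-LKO liver. Spp1 carried most of the sum of that list in N-LKO livers (78.3% to 84.2%) and tumors (60.6% to 89.8%). In WT livers its part ranged from 36.3% to 73.9%. The other 5 genes summed to 18.1 to 23.0 CPM in WT livers, 25.8 to 30.2 CPM in N-LKO livers and 41.3 to 85.8 CPM in tumors.

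Lymphocyte genes were low throughout. The 8 T cell genes summed to 4.75 to 5.84 CPM in WT livers, 6.46 to 9.11 CPM in N-LKO livers and 10.3 to 13.7 CPM in tumors, and 2 of the 7 tested, Cd4 (2.06) and Cd3g (1.78), rose in tumor against WT liver. The 6 B cell genes summed to 3.12 to 12.7 CPM over the WD libraries and the 6 neutrophil genes to 7.30 to 12.3 CPM, with none passing. Among 8 dendritic cell genes, which summed to 18.2 to 28.9 CPM, Cd209a rose (1.75) in tumor against WT liver.

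Sinusoidal endothelial genes had sums that overlapped between the groups. The sum was 635 to 698 CPM in WT livers, 634 to 702 CPM in N-LKO livers and 611 to 646 CPM in tumors, with Clec4g (-1.39) lower and Pecam1 (1.08) and Cdh5 (0.71) higher in tumor against WT liver. Stellate cell genes summed to 478 to 861, 792 to 931 and 526 to 904 CPM in the 3 groups, and Reln (-0.94) and Hand2 (-0.89) were lower in tumor. Of 8 hepatocyte genes, all 8 had a value below zero in N-LKO against WT liver under WD with 0 passing (median -0.60), and 3 fell in tumor against WT liver, namely Tat, Ttr and Hnf4a. The sums of the hepatocyte genes were 52839 to 66776 CPM, 37629 to 45684 CPM and 34658 to 60600 CPM. Of the lymphocyte, dendritic, endothelial, stellate and hepatocyte calls against WT liver, those of Clec4g, Cdh5 and Cd209a held in 1 of 9 fits that left out 1 library, and those of Pecam1, Ttr and Hnf4a in 6, the most. The call of Sox9 against WT liver held in all 9 and that against N-LKO liver in 2.

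**Figure D4:**
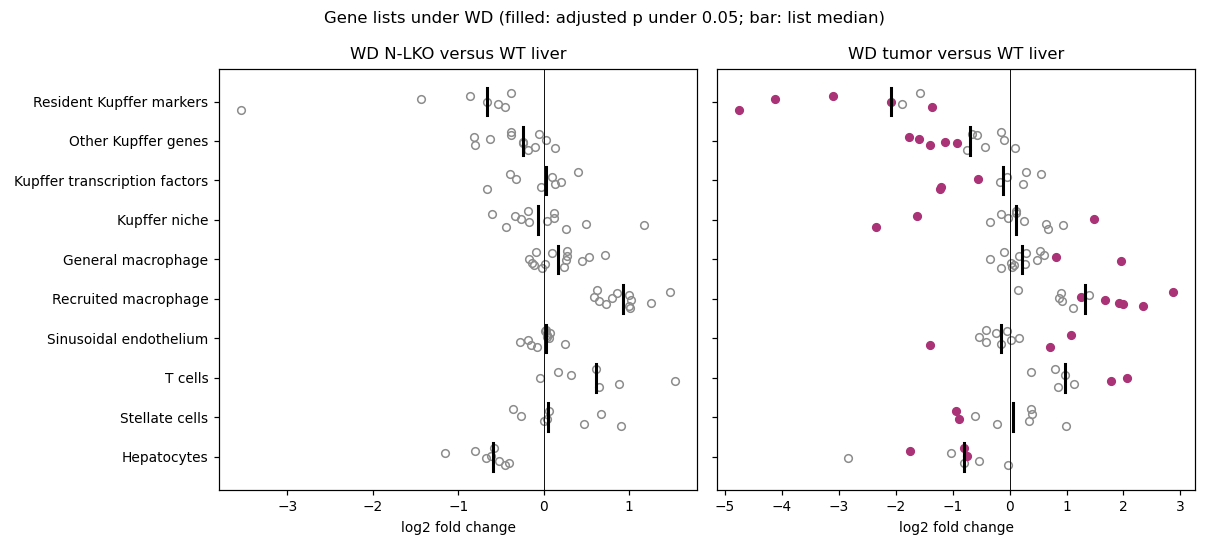
Log2 fold changes of the genes of 10 lists under WD, for N-LKO against WT liver and tumor against WT liver, with filled points for an edgeR adjusted p under 0.05 and bars at list medians. The resident markers have medians of -0.67 and -2.09, the general macrophage genes 0.17 and 0.22, and the recruited macrophage genes 0.93 and 1.32.

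Across libraries the markers followed each other, as values that share group differences, depth and scaling. Over the 9 WD libraries, Pearson correlations of log2 CPM between the 6 markers other than Cd163 ran from 0.898 (Vsig4 and Marco) to 0.994 (Clec4f and Folr2). Those of Cd163 with the others ran from 0.714 to 0.787. By Spearman correlation the ranges overlapped, at 0.8 to 0.933 for Cd163 with the others and 0.817 to 0.983 between the other 6. Over the 8 HFD libraries the lowest was 0.569, between Vsig4 and Marco, and the highest 0.989, between Clec4f and Vsig4.

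Genes outside the list were ranked by likeness to the mean of the markers, taken as the smaller of the Pearson correlations over the 8 HFD and the 9 WD libraries, among 12987 genes. The highest were Il6st (0.929), Fcna (0.927), Hivep1 (0.917), Aars (0.916) and Khdrbs3 (0.905). Of these, Fcna is a Kupffer cell gene, Il6st encodes the shared receptor subunit gp130 and Aars an alanyl-tRNA synthetase. Under WD, Il6st was at 364 to 469 CPM in WT livers and 352 to 387 CPM in N-LKO livers, which overlapped. In tumors it was lower, at 194 to 320 CPM, without overlap with the livers. By the same measure Cd163 (0.827) ranked 62 and Marco (0.80) ranked 99, although both are part of the mean.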

How the data were processed

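Ribosomal RNA was removed, and single-end reads were sequenced. The authors deposited estimated counts for each gene, from a Partek expectation-maximization step that divides shared reads. The methods name TopHat2 and the submitters' processing notes STAR and mm9, whereas listed positions match GENCODE M21 of GRCm38, used here. Groups came from the sample labels, and 0 columns were unassigned. The labels call replicates biological without naming animals. Counts were rounded and analysed in R 4.3.3 with edgeR 4.0.16 (TMM scaling, quasi-likelihood F test, filterByExpr, Benjamini-Hochberg over all genes, two-sided, threshold 0.05). HFD livers were fitted alone and the 3 WD groups together. The script was tested on simulated data. CPM used TMM-scaled library sizes, and CPM per kb the GENCODE exon bases. Standard errors are the fold change over the square root of F. Alternatives were other scalings and filters, an exon length offset, DESeq2 1.42.0, limma-voom 3.58.1, only the groups compared, a replicate block and leaving out each library. Of the list genes, Ly6g was not analysed here and 1 other is not reported here. Named beyond the markers, Nus1 and 4 macrophage genes were up to 3 genes per list with the largest change among those past the threshold in a WD comparison, and the 5 most like the markers. A few further genes are named to show the rest of a list. Tumors and N-LKO livers were not treated as paired. The members and gene lists were chosen with earlier results of these data known. Promoter sequences are from RefSeq (GRCm38.p6). Counts set precision, and low counts such as 1 per library limit it.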

Additional observations from a re-analysis of the deposited data

Results flagged for a closer look

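Marco in WT livers under HFD had 1 library far from the rest. Replicate 3 was at 26.0 CPM while the other WT livers were at 6.25 to 9.47 CPM, and its gap to the nearest library was 0.837 of the range of the group. It was the only one of 14 groups of 4 libraries, over the 7 markers, to stand out in this way, and about 1 such group in 20 does so by chance.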

How the results depend on the processing

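No marker changed direction under any alternative. Under HFD the median log2 fold change of the markers was -1.33, and it ran from -1.53 to -1.02 when each library was left out. Between N-LKO and WT liver under WD, 0 markers passed with edgeR, and 1 passed with DESeq2 and 1 with only the 2 groups compared (Cd163 in both). In the same order, 0%, 0.157% and 0.0296% of all genes passed as lower. Between tumor and N-LKO liver 0 passed, 1 with DESeq2, and 0 to 6 when each library was left out. The shares of all genes passing as lower there were 0.0617%, 2.3% and 0% to 5.59%. Between tumor and WT liver 5 passed, 1 with only the 2 groups compared, and 2 to 7 when each library was left out. Those shares were 6.8%, 1.73% and 1.26% to 10.1%, so they moved with the same settings. The causes were not tested. Same-numbered libraries did not deviate together (correlations from -0.12 to 0.11). So few libraries cannot exclude a pairing of samples by mouse. The submitters' library names carry other numbers, and a pairing by those was not examined. With a replicate block, 0, 0 and 6 markers passed in these WD comparisons, Clec4f being added, where 4.99% of all genes passed as lower in the last. Few counts limit Marco, Timd4 and Cd163 in tumors.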
